A study of Mus musculus with 21 samples.

Results

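The genes described here are the MYC, MAX and MXD network of transcription factors, together with Txnip and Ddit4: Myc, Mycn, Max, Mxd1, Mxd3, Mxd4, Mxi1, Mnt, Txnip and Ddit4. Their members were chosen by gene symbol, as every probe set whose array annotation gave that symbol and no other. This gave 12 of 10833 single-gene probe sets, for 10 of 8251 genes, with 2 probe sets each for Mycn and Txnip and 1 for every other member.

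RNA of B16-F10, a pigmented melanoma cell line derived from C57BL/6J mice, had been hybridised to 21 Affymetrix U74Av2 arrays, and the values are log2 levels. Hypoxia meant 24 h at 1% oxygen. A sealed chamber gave 3 hypoxia arrays with 2 controls, and an incubator with regulated gas flow gave the same numbers in experiment 1 and again in experiment 2. In experiment 3, cells received 100 µM or 200 µM cobalt chloride (CoCl2, used by the submitters to imitate hypoxia) for 24 h, with 2 arrays at each dose and 2 controls. Controls of all 4 sets were grown in 21% oxygen, and the labels do not give their duration. All groups are of this 1 cell line, with no added gene or deletion named in the labels. The chamber controls were matched to the chamber arrays because neither carries an experiment number. Experiments 1 and 2 both used an incubator, so the kind of device differed only between the chamber set and these. There the device and everything else that differed between sets cannot be told apart. The labels call the arrays biological replicates without saying that they came from separate cultures, so the p-values measure the spread between arrays, which may be technical.

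MYC is a transcription factor that drives growth and ribosome production. It binds DNA paired with MAX, at the E-box CACGTG, and activates transcription. MXD1, MXI1, MXD3, MXD4 and MNT also pair with MAX and bind the same E-boxes, but recruit SIN3 corepressors. TXNIP binds thioredoxin and limits glucose uptake, and its gene is transcribed by MondoA paired with MLX, relatives of this network. DDIT4 (REDD1) restrains the growth kinase complex mTORC1, and Ddit4 and Mxi1 are known targets of the hypoxia-inducible factor HIF-1, which binds DNA at the cores ACGTG and GCGTG.

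The upstream sequences of Txnip, Ddit4, Mxd4 and Mxi1 are shown so that the E-box and the HIF-1 cores named above can be looked for. These were the members called with a difference above 1 log2 unit in at least 1 hypoxia set. Each is the 250 bases before an annotated transcription start, 5′ to 3′ on the gene's own strand, from RefSeq (GRCm38.p6). Capitals mark the E-box CACGTG and the cores ACGTG and GCGTG, found on either strand, and each CACGTG also holds an ACGTG. The Txnip window is chr3:96557707-96557956 (plus strand), the Ddit4 window chr10:59951771-59952020 (minus strand), the Mxd4 window chr5:34187711-34187960 (minus strand), and the Mxi1 windows, at different starts of the gene, chr19:53310256-53310505 and chr19:53329163-53329412 (plus strand).
Txnip: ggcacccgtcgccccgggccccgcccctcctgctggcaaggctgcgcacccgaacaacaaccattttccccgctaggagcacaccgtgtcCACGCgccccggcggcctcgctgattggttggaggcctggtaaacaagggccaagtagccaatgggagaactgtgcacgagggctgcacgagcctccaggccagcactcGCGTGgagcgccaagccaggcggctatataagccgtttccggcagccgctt
Ddit4: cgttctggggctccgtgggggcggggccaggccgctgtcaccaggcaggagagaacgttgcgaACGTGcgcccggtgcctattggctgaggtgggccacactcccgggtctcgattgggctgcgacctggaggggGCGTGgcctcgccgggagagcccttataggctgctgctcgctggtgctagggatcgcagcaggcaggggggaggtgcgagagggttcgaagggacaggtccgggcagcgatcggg
Mxd4: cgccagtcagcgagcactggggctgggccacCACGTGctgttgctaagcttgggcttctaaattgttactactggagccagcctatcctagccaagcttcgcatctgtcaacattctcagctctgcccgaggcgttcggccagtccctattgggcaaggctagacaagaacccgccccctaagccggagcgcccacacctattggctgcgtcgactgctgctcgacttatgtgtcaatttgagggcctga
Mxi1 first start: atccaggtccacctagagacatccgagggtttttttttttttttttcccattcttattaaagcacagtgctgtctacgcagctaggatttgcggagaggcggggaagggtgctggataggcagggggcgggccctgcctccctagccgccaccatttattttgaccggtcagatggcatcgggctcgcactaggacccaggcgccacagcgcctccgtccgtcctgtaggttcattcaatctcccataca
Mxi1 second start: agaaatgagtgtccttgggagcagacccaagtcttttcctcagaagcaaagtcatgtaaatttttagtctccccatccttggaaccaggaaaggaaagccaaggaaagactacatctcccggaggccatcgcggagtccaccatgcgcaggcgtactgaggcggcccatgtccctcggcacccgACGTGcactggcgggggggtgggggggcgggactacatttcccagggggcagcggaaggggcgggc
The Mxd4 window held 1 CACGTG, beginning at position -219 from the start, and the Ddit4 window held 1 ACGTG and 1 GCGTG. Txnip held 2 copies of GCGTG and no CACGTG, and of the Mxi1 windows shown only the second held a marked sequence, 1 ACGTG. Another Mxi1 window, not shown (chr19:53329445-53329694), also held 1 ACGTG. No window was found for Myc. Among the 11 windows found for the members, CACGTG occurred in 2 (Mxd4 and Mnt), ACGTG in 5 and GCGTG in 4. Of all 32851 windows in the table, 6.02% held CACGTG, 16.6% ACGTG and 28.2% GCGTG. These matches are descriptions of letters and show no binding. Other sequences, such as those read by MondoA with MLX, were not searched for or marked.

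Differences between treated and control arrays come from 1 linear model over all 21 arrays (limma), given as log2 difference ± standard error, with p adjusted by the Benjamini-Hochberg method over all 10833 probe sets, and a probe set is called at an adjusted p under 0.05. Over the mean of the 3 hypoxia sets, 7 of the 12 member probe sets were called, where 28.0% of all probe sets were. Of these, 5 were higher (Ddit4, Mxi1, Mxd4, Myc and Mxd1) and 2 lower (Txnip and Mxd3), against 11.2% higher and 16.8% lower over all. Within sets, 7 were called in the chamber (19.1% of all probe sets), 5 in experiment 1 (15.9%) and 3 in experiment 2 (13.0%). At 100 µM CoCl2, 8 were called (34.4% of all), 7 higher and 1 lower, where 16.3% of all were higher and 18.0% lower. At 200 µM 8 were called (37.9% of all), 6 higher and 2 lower, where 18.2% of all were higher and 19.7% lower. Both doses were set against the same 2 controls. The main differences within the family were the direction of Myc, which was higher in hypoxia and lower with CoCl2, and the level of Txnip, which depended on the set and on the dose.

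**Figure D1:**
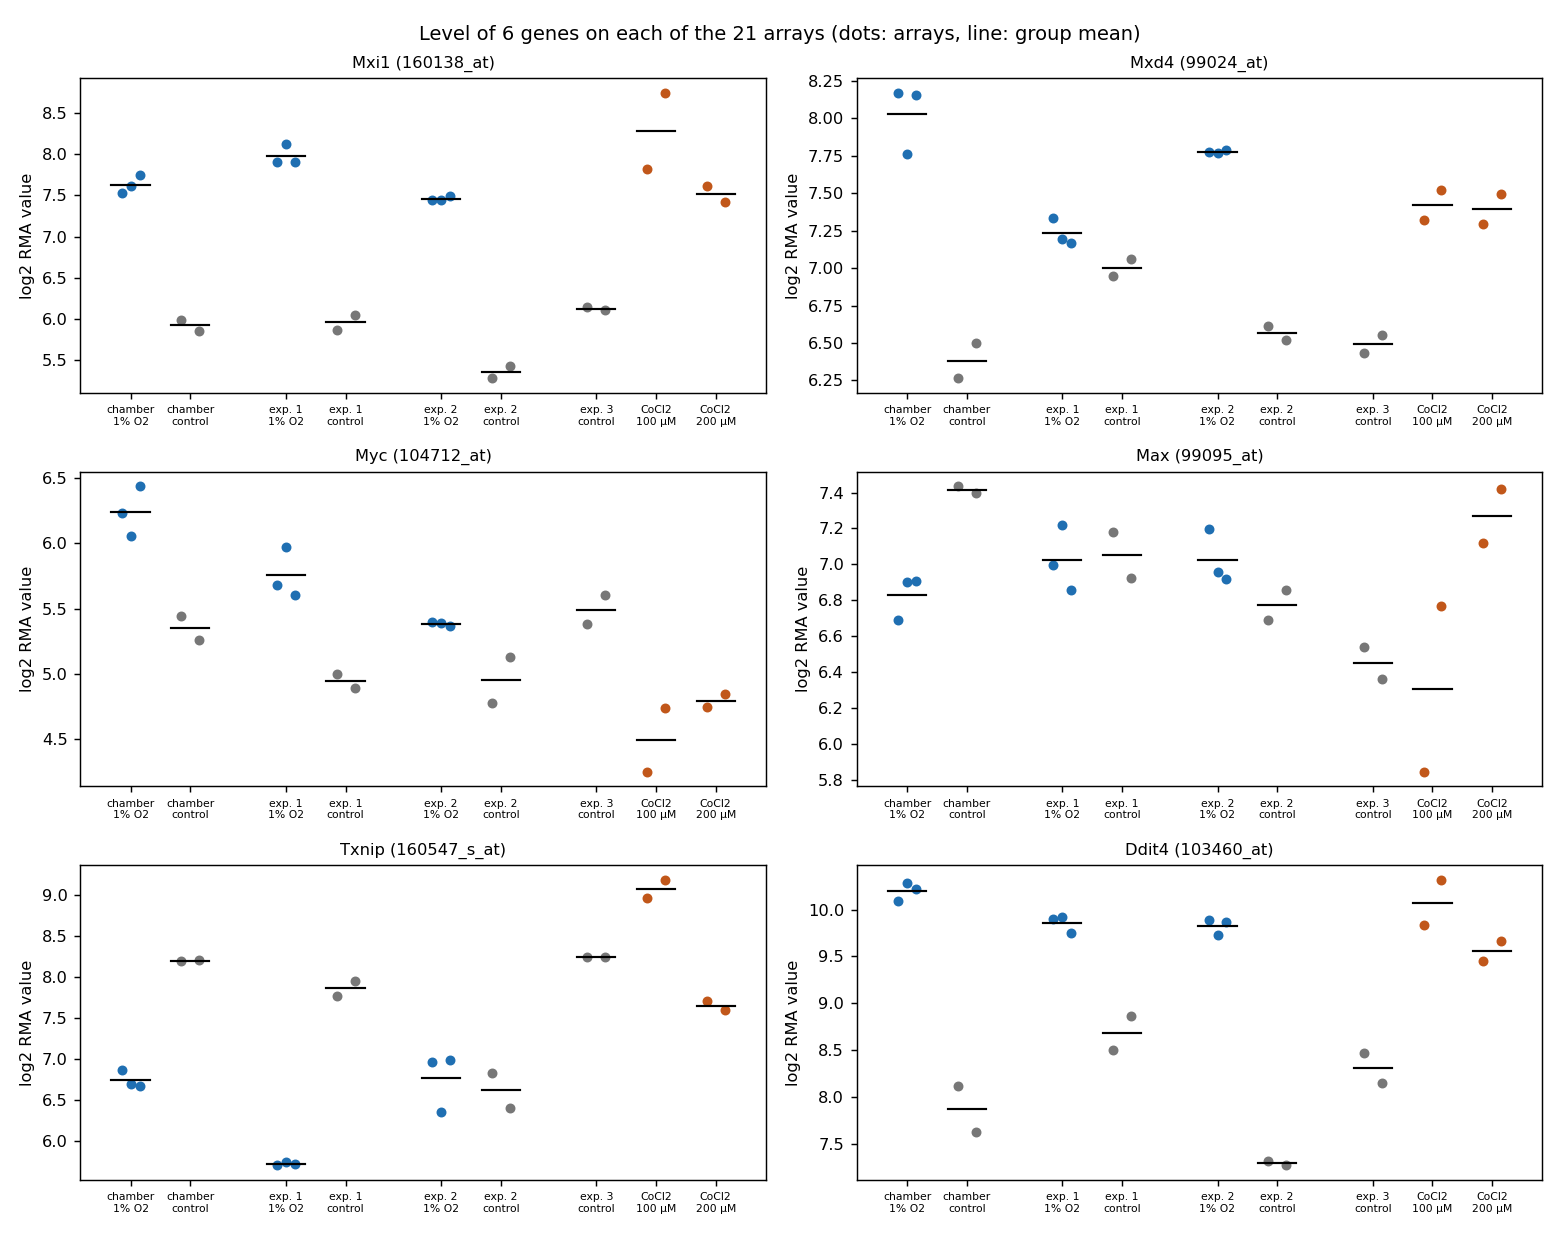
Level of 6 genes on each of the 21 arrays. The vertical axis is the log2 level, each point is 1 array, and groups run along the horizontal axis with each hypoxia group left of its controls and experiment 3 in order of dose. Mxi1, Mxd4 and Ddit4 were higher on every treated array than on every array of their own controls. How many of all probe sets were separated in this way was not counted. Txnip was at 5.70 to 5.74 in experiment 1 hypoxia and at 8.97 and 9.19 with 100 µM of CoCl2.

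Of the repressors that pair with MAX, only Mxi1 (chr19:53310128-53373293) was called in every hypoxia set and at both CoCl2 doses, each time higher. The differences of Mxd4, Mxd1 and Mxd3 also kept their direction throughout, with fewer calls. In hypoxia it stood at 7.53, 7.61 and 7.75 in the chamber, against 5.99 and 5.86 in the chamber controls. In experiment 1 it stood at 7.90, 8.12 and 7.91 in hypoxia, against 5.87 and 6.05 in controls. In experiment 2 the values were 7.44, 7.44 and 7.49 in hypoxia, against 5.28 and 5.43 in controls. Every hypoxia array lay more than 1 log2 unit above every control array of its set. The differences were 1.70 ± 0.17 in the chamber (adjusted p = 3.9e-07), 2.02 ± 0.17 in experiment 1 (3.9e-08) and 2.10 ± 0.17 in experiment 2 (1.7e-08). They averaged 1.94 ± 0.10, or 3.84-fold (adjusted p = 2.7e-12). The hypoxia effects of the sets could not be told apart for Mxi1. The chamber effect minus the experiment 1 effect was -0.31 (95% interval -0.82 to 0.19), the chamber effect minus the experiment 2 effect was -0.40 (-0.90 to 0.10), and the experiment 1 effect minus the experiment 2 effect was -0.09 (-0.59 to 0.42). In experiment 3, Mxi1 was at 6.15 and 6.11 in controls, at 7.82 and 8.74 with 100 µM CoCl2 and at 7.62 and 7.42 with 200 µM. The doses did not overlap, and the pair at 100 µM was far apart. Mxi1 was higher than in controls by 2.15 ± 0.19 at 100 µM (adjusted p = 1.7e-08) and by 1.39 ± 0.19 at 200 µM (4.4e-06). The difference between the doses, 200 µM minus 100 µM, was -0.76 ± 0.19 (adjusted p = 0.0081). It was -0.30 without the second 100 µM array and -0.66 without the second 200 µM array, and the call was lost each time. This dose call was also lost with array weights (adjusted p = 0.116) and with only the arrays of experiment 3 (0.215). With the Actb 3′ minus 5′ signal as a covariate the dose difference of Mxi1 was -0.80 (0.348).

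Mxd4 (chr5:34176580-34187710), a repressor linked to cells leaving proliferation, was higher in hypoxia in a way that differed between sets. It had 8.17, 7.76 and 8.15 in chamber hypoxia, against 6.26 and 6.50 in chamber controls. It had 7.34, 7.19 and 7.17 in experiment 1 hypoxia, against 6.95 and 7.06 in controls. Experiment 2 hypoxia gave 7.78, 7.76 and 7.78, against 6.61 and 6.52 in controls. The groups did not overlap in any set, but in experiment 1 the lowest hypoxia array was near the highest control. Mxd4 rose by 1.64 ± 0.12 in the chamber (adjusted p = 7.7e-09) and by 1.21 ± 0.12 in experiment 2 (5.6e-07), while the experiment 1 difference of 0.23 ± 0.12 was not called (0.25). The chamber effect exceeded the experiment 1 effect by 1.41 ± 0.18 (adjusted p = 0.00037), in a comparison that called 2.98% of all probe sets. The experiment 1 effect minus the experiment 2 effect was -0.98 ± 0.18 (adjusted p = 0.016, 0.203% of all probe sets called). The call between experiments 1 and 2 was lost without experiment 1 control 1 (adjusted p = 0.0693) or 2 (0.148), experiment 1 hypoxia array 3 (0.0505), experiment 2 control 1 (0.0556) or 2 (0.0662), or experiment 2 hypoxia array 2 (0.0506). Mxd4 was at 6.43 and 6.55 in experiment 3 controls, 7.32 and 7.52 with 100 µM CoCl2 and 7.29 and 7.50 at 200 µM. Both doses lay above the controls and overlapped each other. The differences were 0.93 ± 0.14 at 100 µM (adjusted p = 2.2e-05) and 0.90 ± 0.14 at 200 µM (2e-05).

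The other repressors moved less. Mxd1, which rises in differentiating cells, had 5.16, 5.13 and 5.10 in chamber hypoxia, against 4.81 and 4.75 in controls (0.35 ± 0.11, adjusted p = 0.036). That call was lost without any 1 of the 5 chamber arrays (adjusted p from 0.0607 to 0.222), and neither experiment 1 (0.21, adjusted p = 0.25) nor experiment 2 (0.09, adjusted p = 0.74) passed. Mxd1 was at 4.71 and 4.88 in experiment 3 controls, 5.22 and 5.02 with 100 µM CoCl2 and 5.24 and 5.51 at 200 µM, and only the higher dose was called (0.58 ± 0.13, adjusted p = 0.00095). At 100 µM the adjusted p was 0.052, and the doses did not differ by test (adjusted p = 0.20). Mxd3, known for its place in proliferating cells, fell by 0.24 ± 0.06 over the mean of the hypoxia sets (adjusted p = 0.0038). Its values were 8.11, 7.96 and 8.06 in chamber hypoxia against 8.27 and 8.32 in controls, and 7.79, 7.58 and 7.77 in experiment 1 hypoxia against 8.07 and 7.98 in controls. In experiment 2 the Mxd3 values were 7.90, 7.81 and 7.85 in hypoxia against 8.14 and 7.90 in controls. The groups lay apart in the chamber and experiment 1 and met in experiment 2, and neither the chamber (-0.25, adjusted p = 0.10) nor experiment 2 (-0.17, 0.40) was called. The Mxd3 difference of experiment 1 was called (-0.31 ± 0.11, adjusted p = 0.049), but not without any 1 of its 5 arrays (0.0502 to 0.288). The chamber difference of Mxd3 was called with median centring (0.0488), array weights (0.0065) and only that set's arrays (0.0265). With CoCl2 the Mxd3 differences were -0.22 at 100 µM (adjusted p = 0.14) and -0.15 at 200 µM (0.33). Mnt, the widely expressed repressor of the network, was not called in any hypoxia set (differences from -0.13 to 0.27). Mnt was at 6.84 and 6.95 in experiment 3 controls, 7.90 and 7.04 with 100 µM CoCl2 and 7.12 and 7.69 at 200 µM. The 2 arrays of each dose were far apart, and the calls (0.58 ± 0.20, adjusted p = 0.032, and 0.51 ± 0.20, 0.0498) were lost without the higher array of either dose (0.15, adjusted p = 0.643, and 0.23, 0.441). Both Mnt calls were also lost without either control (adjusted p = 0.158 and 0.0714 at 100 µM, 0.205 and 0.0962 at 200 µM), with array weights (0.094 and 0.0568) and with only the arrays of experiment 3 (0.221 and 0.2498), and that at 200 µM with the Actb 3′ minus 5′ signal as a covariate (0.33, 0.278) and with every probe set of the table in the adjustment (0.0521).

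Myc (chr15:61985341-61990361) was higher in hypoxia and lower with CoCl2. In the chamber it had 6.23, 6.06 and 6.44 in hypoxia, against 5.44 and 5.26 in controls. In experiment 1 it had 5.68, 5.97 and 5.61 in hypoxia, against 5.002 and 4.89 in controls. In experiment 2 it had 5.40, 5.39 and 5.37 in hypoxia, against 4.77 and 5.13 in controls. All hypoxia arrays lay above all controls of their own set, though the chamber controls were level with experiment 2 hypoxia. Myc rose by 0.89 ± 0.15 in the chamber (1.85-fold, adjusted p = 0.00021) and by 0.81 ± 0.15 in experiment 1 (1.75-fold, 0.00063). In experiment 2 the difference of 0.43 ± 0.15 did not pass (adjusted p = 0.068), but was called without the arrays of experiment 3 in the model (0.43, 0.0254). Leaving out 1 array at a time moved the experiment 2 difference from 0.25, without control 1, to 0.61, without control 2. No pair of sets was called for a difference between the hypoxia effects of Myc. The chamber effect minus the experiment 2 effect was 0.46, with a 95% interval (0.02 to 0.90) that left out 0 (adjusted p = 0.42). The experiment 1 effect minus the experiment 2 effect was 0.38 (-0.07 to 0.82). The Myc levels of the 3 hypoxia groups differed by an F-test added after the values were seen (adjusted p = 0.00068, 15.5% of all probe sets called). With CoCl2 the order turned. Myc was at 5.38 and 5.60 in experiment 3 controls, 4.25 and 4.74 at 100 µM and 4.74 and 4.84 at 200 µM. Each treated array was below each control of experiment 3, and 100 µM held the lowest of the 21 values. Experiment 3 controls had the highest Myc mean of the 4 control groups (5.49, against 5.35 in the chamber and 4.95 in experiments 1 and 2). The 200 µM arrays overlapped the experiment 2 controls. The differences were -0.998 ± 0.17 at 100 µM (adjusted p = 8.5e-05) and -0.70 ± 0.17 at 200 µM (0.0021), and the doses did not differ by test (0.30 ± 0.17, adjusted p = 0.27). The mean CoCl2 effect minus the mean hypoxia effect was -1.56 ± 0.17 for Myc (adjusted p = 6.1e-07), a comparison that called 21.8% of all probe sets. This call was kept under every alternative that was run for it. The Actb 3′ minus 5′ covariate was not run for this comparison. CoCl2 was given only in experiment 3, whose RNA quality also differed, so treatment and experiment cannot be told apart here. Of all probe sets, 14.3% were lower at both doses, and 0.692% were, like Myc, called higher for the mean hypoxia effect and lower at both doses.

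Max (chr12:76937269-76962323), the partner of every factor above, gave no stable direction. It was at 6.69, 6.90 and 6.90 in chamber hypoxia, against 7.44 and 7.40 in controls, a difference of -0.59 ± 0.19 (adjusted p = 0.032). The chamber call was lost without either control (adjusted p = 0.161 and 0.146), without hypoxia array 1 (0.112) or 2 (0.0561), and with quantile normalisation (0.0713). Hypoxia and control values of Max overlapped in experiment 1 (difference -0.03, adjusted p = 0.96), and in experiment 2 the difference was 0.25 (0.51). In experiment 3 Max was at 6.54 and 6.36 in controls, 5.84 and 6.77 with 100 µM CoCl2 and 7.12 and 7.42 at 200 µM. The 100 µM arrays stood on either side of the controls, and the 200 µM arrays above all others of the experiment. Max was higher by 0.82 ± 0.20 at 200 µM (adjusted p = 0.0033), and by 0.96 ± 0.20 at 200 µM than at 100 µM (0.0029). Without the first 100 µM array the dose difference of Max was 0.50 (adjusted p = 0.0586), and without the second 200 µM array its adjusted p was 0.0582. The Max call at 200 µM was lost with the Actb 3′ minus 5′ signal as a covariate (0.62, 0.0502) and with only the arrays of experiment 3 (0.82, 0.0695). The dose difference of Max was lost with array weights (0.96, 0.0619), with only the arrays of experiment 3 (0.96, 0.132) and with that covariate, where it was 0.49 (0.637). Mycn, the MYC relative of neural tissue, was near the bottom of the array's range. Its probe sets lay at the 14th and the 2nd percentile of mean level, and ranged over 2.95 to 3.55 and over 1.71 to 3.17. The only Mycn call was of the first probe set at 100 µM (0.38 ± 0.13, adjusted p = 0.032), and at such levels no direction can be given.

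Txnip (chr3:96557957-96561857) had the largest single difference between 2 hypoxia sets among the members, that of experiments 1 and 2. Its brighter probe set had 6.86, 6.69 and 6.66 in chamber hypoxia, against 8.20 and 8.21 in controls. In experiment 1 it had 5.70, 5.74 and 5.71 in hypoxia, against 7.77 and 7.96 in controls. In experiment 2 it had 6.96, 6.34 and 6.98 in hypoxia, against 6.83 and 6.40 in controls. Hypoxia arrays were far below controls in the first pair of sets and overlapped them in experiment 2, whose controls were already as low as the hypoxia arrays. Txnip fell by 1.46 ± 0.16 in the chamber (2.76-fold lower, adjusted p = 9.7e-07) and by 2.15 ± 0.16 in experiment 1 (4.43-fold lower, 4e-09). In experiment 2 the difference was 0.15 ± 0.16 (adjusted p = 0.69). Lower in the chamber and experiment 1 and not called in experiment 2, as Txnip was, were 1.60% of all probe sets. The chamber effect minus the experiment 2 effect was -1.61 ± 0.22 for Txnip (adjusted p = 0.005), 1 of 6 probe sets called there (0.0554% of all). The experiment 1 effect minus the experiment 2 effect was -2.30 ± 0.22 (adjusted p = 1.7e-05). Txnip kept this second call under every alternative that was run, and lost the first without chamber control 2 (-1.60, 0.0632). The chamber effect minus the experiment 1 effect was 0.69 ± 0.22 for Txnip (adjusted p = 0.10), and was called only with array weights (0.0242).

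Txnip also differed among the control groups. An F-test among the 4 control groups, added after the values were seen, gave an adjusted p of 4.5e-06 for Txnip, where 27.4% of all probe sets were called. By group mean the order of Txnip ran from 9.08 at 100 µM CoCl2 through 8.25 in experiment 3 controls, 8.20 in chamber controls, 7.86 in experiment 1 controls and 7.65 at 200 µM. Below these came 6.76 in experiment 2 hypoxia, 6.74 in chamber hypoxia and 6.62 in experiment 2 controls, which overlapped one another, and last 5.71 in experiment 1 hypoxia. The hypoxia groups also differed among themselves for Txnip (adjusted p = 3.4e-05, 15.5% of all probe sets called). The same test among controls was passed by Ddit4 (4.8e-05), Mxd1 (0.0047), Max (0.0072), Mxd4 (0.0076), the dimmer Txnip probe set (0.012), Mxi1 (0.016) and Myc (0.025). Experiment 3 held the highest control mean of Mxi1, Myc and the brighter Txnip probe set, and the lowest of Max and the dimmer one. For Ddit4, Mxd1 and Mxd4 it lay between the others. The Actb 3′ minus 5′ signal was 1.41 and 1.62 in experiment 3 controls and 0.22 to 0.50 in the other controls. Whether the time in culture, cell density or medium differed between these control groups is not given in the labels. The part of these and of RNA quality was not tested.

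With CoCl2, Txnip moved in opposite directions at the 2 doses. It was at 8.24 and 8.25 in untreated experiment 3 cells, 8.97 and 9.19 at 100 µM and 7.71 and 7.59 at 200 µM. The 3 groups were fully apart, with controls in the middle. Txnip was higher by 0.84 ± 0.17 at 100 µM (adjusted p = 0.00078) and lower at 200 µM (-0.59 ± 0.17, 0.0095), and the doses differed by -1.43 ± 0.17 (1.1e-05, 200 µM minus 100 µM). In the comparison of doses 14.4% of all probe sets were called, and 0.157% were called higher at 100 µM and lower at 200 µM. The call at 200 µM was lost with quantile normalisation (adjusted p = 0.0532), with array weights (0.0758), with the Actb 3′ minus 5′ signal as a covariate (0.0536) and without the second 200 µM array (0.0561). The dose difference of Txnip was lost only with that covariate (-1.28, 0.0673). The mean CoCl2 effect minus the mean hypoxia effect was 1.28 ± 0.17 for Txnip (adjusted p = 1.4e-05), where the CoCl2 mean joins doses of opposite sign, and for Mxi1 it was -0.17 (95% interval -0.56 to 0.23). The dimmer Txnip probe set did not follow the first. Its values stayed between 5.61 and 6.35 on all 21 arrays, its hypoxia differences were 0.24, 0.04 and -0.06, and it was called only at 100 µM (0.37 ± 0.13, adjusted p = 0.033). Every Txnip result above therefore rests on 1 probe set, whose s_at type means that its probes can match more than 1 transcript.

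Ddit4 (chr10:59949675-59951770) was higher with every treatment. In the chamber it had 10.10, 10.28 and 10.22 in hypoxia, against 8.12 and 7.63 in controls. In experiment 1 it had 9.90, 9.92 and 9.75 in hypoxia, against 8.51 and 8.86 in controls. In experiment 2 it had 9.89, 9.73 and 9.86 in hypoxia, against 7.32 and 7.27 in controls. Hypoxia arrays of all sets lay within a narrow band, while the controls were spread over a wider one. The rise was 2.33 ± 0.16 in the chamber (5.02-fold, adjusted p = 1.7e-09), 1.17 ± 0.16 in experiment 1 (2.25-fold, 1.7e-05) and 2.53 ± 0.16 in experiment 2 (5.78-fold, 2.6e-10). The chamber effect minus the experiment 1 effect was 1.15 ± 0.22 for Ddit4 (adjusted p = 0.0071), and the experiment 1 effect minus the experiment 2 effect was -1.36 ± 0.22 (0.0079). The first call was lost without chamber control 2 (0.91, 0.0827) or experiment 1 control 2 (0.98, 0.0583), and the second without experiment 1 control 2 (-1.18, 0.112) or experiment 2 control 1 (adjusted p = 0.0505). The F-test among the 3 hypoxia groups did not pass for Ddit4 (adjusted p = 0.11), while that among the controls did. With CoCl2, Ddit4 was at 8.47 and 8.15 in experiment 3 controls, 9.83 and 10.32 at 100 µM and 9.45 and 9.67 at 200 µM. All treated arrays were above both controls, and the doses did not overlap. The differences were 1.76 ± 0.17 at 100 µM (adjusted p = 8.5e-08) and 1.25 ± 0.17 at 200 µM (5.7e-06). The doses differed by -0.52 ± 0.17 (adjusted p = 0.049), a call lost under most alternatives. Ddit4 and Mxi1 were the members called higher in each hypoxia set (2.69% of all probe sets), and Ddit4, Mnt, Mxd4 and Mxi1 those called higher at both doses (8.65%). Both conditions were met by Ddit4 and Mxi1, and by 1.50% of all probe sets.

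**Figure D2:**
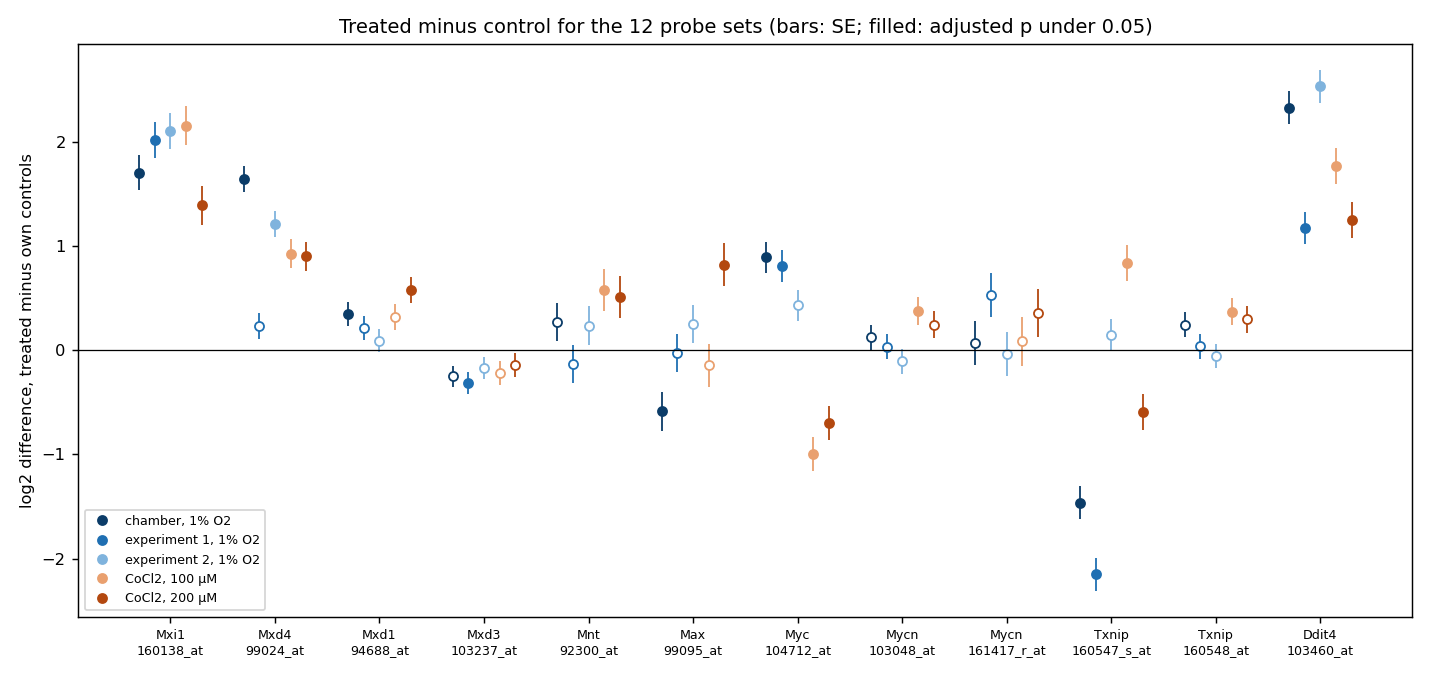
Treated minus control differences of the 12 member probe sets in the 3 hypoxia sets and at the 2 CoCl2 doses. The vertical axis is in log2 units, bars are standard errors, and filled points were called. Myc is above 0 in every hypoxia set and below 0 at both doses, and the brighter Txnip probe set is at -2.15 in experiment 1 and at 0.15 in experiment 2.

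**Figure D3:**
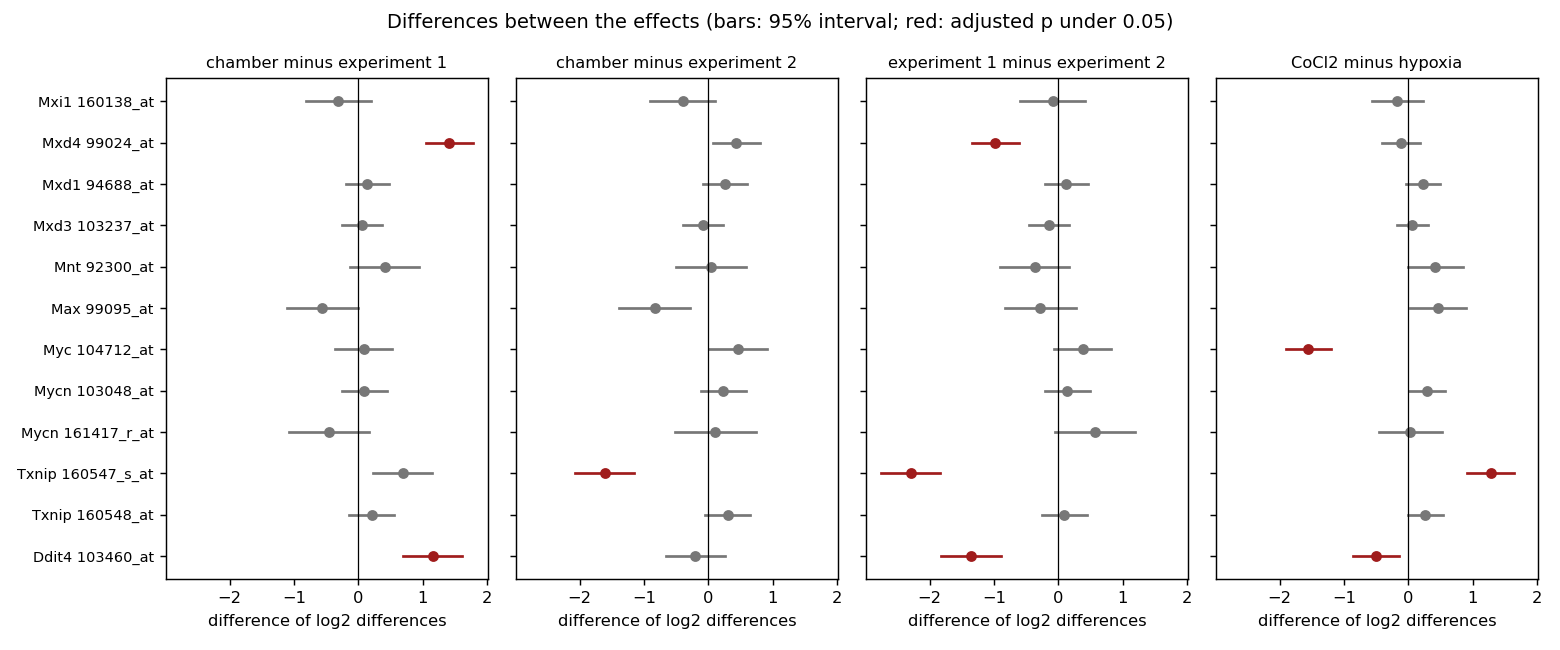
Differences between the effects in pairs of hypoxia sets, and between CoCl2 and hypoxia, for the member probe sets. The horizontal axis is in log2 units, bars are 95% intervals, and red marks called probe sets. Between sets, the intervals of the brighter Txnip probe set and Mxd4 leave out 0 in each comparison, and those of Ddit4 in the comparisons with experiment 1. For Ddit4 the chamber minus experiment 2 interval holds 0. Intervals of Max for the chamber minus either experiment, and of Myc for the chamber minus experiment 2, leave out 0 without a call. The interval of Mxi1 holds 0 in each comparison.

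The genes whose levels are known to be raised or lowered by MYC were counted next. Over 32 probe sets of 23 genes that MYC activates, the mean hypoxia effect was called lower for 17 and higher for 1 (Ldha, the lactate enzyme also driven by HIF-1), with a median of -0.27 beside 0.01 over all probe sets. By set, 16 were lower and 2 higher in the chamber, 9 were lower in experiment 1 and 15 in experiment 2, and 8 were lower in all 3. Over all probe sets 12.5%, 9.18% and 6.58% were lower in these sets, and 16.8% for the mean hypoxia effect. Srm, which makes spermidine, was at -1.24 ± 0.07 for the mean hypoxia effect (adjusted p = 2.2e-11), and Nop56, a box C/D ribonucleoprotein of ribosome assembly, at -1.16 ± 0.07 (4.7e-11). Shmt1, of one-carbon metabolism, was at -1.03 ± 0.07 (2e-10) and Nme1, a nucleoside diphosphate kinase, at -1.02 ± 0.07 (3.8e-10). Thus Myc and most called genes of this list stood on opposite sides of 0 in hypoxia. Other probe sets of Nop56 (-0.25), Shmt1 (-0.06) and Nme1 (-0.04) were not called. At 100 µM CoCl2 17 of the 32 were lower and 1 higher, and at 200 µM 16 lower and 5 higher. Of all probe sets, 18.0% were lower and 16.3% higher at 100 µM, and 19.7% and 18.2% at 200 µM. The medians of the list were -0.42 and -0.37, beside 0.11 and 0.12 over all probe sets. Nop56 was at -2.43 and -1.90 at these doses, and Nme1 at -1.86 and -2.17. The 5 that were higher at 200 µM were both probe sets of Tfrc (0.64 and 0.78), Ldha (0.76), Rcc1 (0.43) and 1 of Hspd1 (0.43), named after their values were seen.

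Of 14 probe sets of 9 genes that MYC represses, 10 were higher and 0 lower (limma) over the mean of the hypoxia sets, with a median of 0.60 beside 0.01 over all probe sets, of which 11.2% were higher. None fell at an unadjusted p under 0.05 either. At 100 µM 12 were higher, where 16.3% of all were, and at 200 µM 11, where 18.2% were. The medians at these doses were 0.90 and 1.03, beside 0.11 and 0.12 over all. Cdkn1a, the inhibitor of cyclin-dependent kinases p21, was higher by 1.85 ± 0.16 in hypoxia (adjusted p = 7.6e-09) and Ndrg1, a hypoxia-induced stress gene, by 1.71 ± 0.07 (5.6e-14). With CoCl2 the Ndrg1 differences were 2.05 and 2.20. Cdkn1a and Ndrg1 have 2 probe sets each, and both were called. Gadd45a, a growth-arrest gene, differed between sets, at 0.08 in the chamber and 1.57 in experiment 1. Myc and this list were both higher in hypoxia, whereas with CoCl2 Myc was lower and the list higher.

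**Figure D4:**
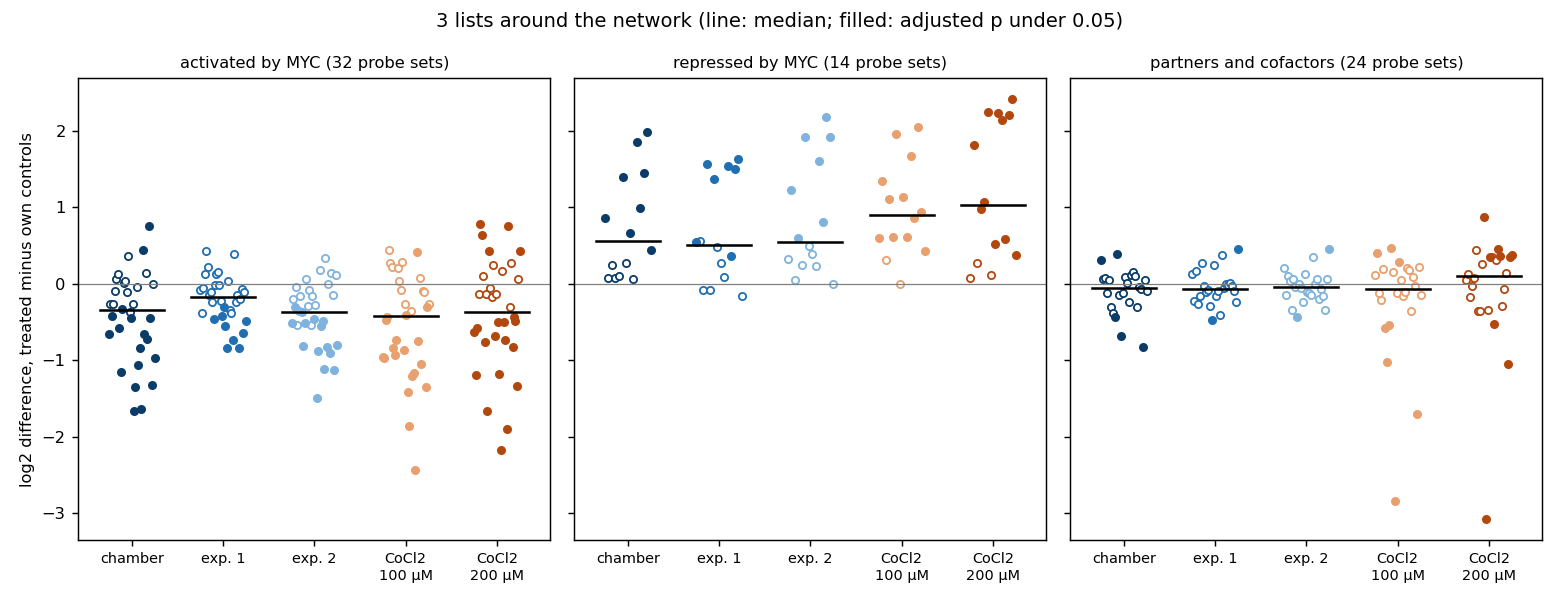
Treated minus control log2 differences of the probe sets of genes activated by MYC, genes repressed by MYC and network cofactors, 1 point per probe set, filled where called, with the median as a line. The median of the MYC-activated group lies below 0 and that of the MYC-repressed group above 0 in each comparison.

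Cofactors of the network were called in hypoxia about as often as all probe sets (28.0%): of 24 probe sets of 19 genes, 3 were higher (Sin3b, 0.28, Zbtb17, 0.27, and Mlx, 0.21) and 4 lower (Aurka, -0.47, Ruvbl1, -0.42, Kat2a, -0.32, and Fbxw7, -0.27). Zbtb17, Mlx and Fbxw7 were named after their values were seen. Sin3b is a corepressor used by the MXD proteins, and Zbtb17 (MIZ1) the partner through which MYC represses. With CoCl2, 5 were lower and 3 higher at 100 µM, where 18.0% of all probe sets were lower and 16.3% higher. At 200 µM 3 were lower and 6 higher, where 19.7% of all were lower and 18.2% higher. Aurka, a mitotic kinase that stabilises MYCN, was at -2.84 and -3.07 at the 2 doses, and Ruvbl1, a MYC cofactor helicase, at -1.70 and -1.04. Around Txnip, 9 probe sets of 7 genes held 2 higher and 3 lower for the mean hypoxia effect, where 11.2% of all probe sets were higher and 16.8% lower. Slc2a1, the glucose transporter that TXNIP helps remove from the cell surface, was higher by 2.05, 2.78 and 2.31 in the chamber, experiment 1 and experiment 2, and by 2.70 and 2.91 at 100 and 200 µM CoCl2. Slc2a1 was therefore higher in experiment 2 and at 100 µM as well, where Txnip was not lower. Txnrd1, a thioredoxin reductase, was at -0.67 ± 0.09 for the mean hypoxia effect (adjusted p = 4.1e-06). Around Ddit4, 13 probe sets of 8 genes of mTORC1 control held 3 lower (Akt1s1, -0.52, Sesn1, -0.37, and Mlst8, -0.20), against the same 16.8% of all. Akt1s1 (PRAS40), an inhibitor within the complex, was higher with CoCl2 instead, at 0.46 and 0.45, and Tsc2, an upstream brake, was at -0.77 and -1.01 by 1 of its probe sets.

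The probe sets most like a member were ranked by Pearson correlation over the 21 arrays after subtracting the mean of the set's own controls, as a description in which arrays of a group share their treatment. For Mxi1 these were Eno2 (0.977), Ccng2 (0.976) and Sap30 (0.973), and for Ddit4 Anxa4 (0.960), Crem (0.951) and Casp6 (0.947). Ccng2 was also among the 4 nearest to Ddit4 (0.944). Myc had Anxa1 (0.945), Itga4 (0.940) and Actn4 (0.927), and Mxd4 had Ndrg4 (0.919), Jarid2 (0.918) and Ndrg2 (0.916). Txnip had lower values than the others named, with Rdh11 (0.873), Tmem205 (0.851) and Col1a2 (0.848).

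Some marker genes moved with hypoxia and more with CoCl2, and RNA quality differed in experiment 3. Their part in the member results was not tested except where a covariate is given. Melanocyte markers (10 probe sets of 6 genes, among them Pmel, Dct and Tyrp1) averaged 8.78 to 9.08 per array in the hypoxia sets. In experiment 3 they averaged 8.55 to 8.57 in controls, 6.98 to 7.22 at 100 µM and 6.13 to 6.24 at 200 µM, with 8 and 9 of the 10 called lower. In bulk RNA, fewer cells of a kind and less RNA per cell cannot be told apart. Of the melanocyte markers Mitf, a melanocyte transcription factor, was called higher in each hypoxia set (0.60, 0.89 and 1.19), and 1 of 10 was lower for the mean hypoxia effect. Lists of other cell types averaged lower than the melanocyte list, but not all of their probe sets were low. In controls, 1 probe set of Col1a2 averaged 8.01 (percentile 87.6 of all probe sets), 1 of Col1a1 6.89 (72.5) and Cdh1 6.64 (68.5). Pecam1 was at 6.15 (59.8) and Cd3e at 6.15 (59.7), while Epcam was at 2.50 (5.9) and Tek at 2.51 (5.9). Leukocyte markers (9 probe sets) averaged 3.77 to 4.05 per array in hypoxia, against 3.63 to 3.84 in the controls of those sets. In experiment 3 they averaged 3.70 to 3.75 in controls, 4.04 to 4.19 at 100 µM and 4.32 to 4.37 at 200 µM, with 2 of 9 called higher at each dose. The macrophage marker Cd68 was higher by 0.86, 0.95 and 0.72 in the chamber, experiment 1 and experiment 2, and by 2.50 at 100 µM and 3.98 at 200 µM. Its other probe set was not called, and Ptprc, the general leukocyte marker, stayed near the bottom of the range. Epithelial markers averaged 3.84 to 3.88 in experiment 3 controls, 4.14 to 4.21 at 100 µM and 4.19 at 200 µM, with 3 of 5 called higher at each dose. Fibroblast markers averaged 4.64 to 4.69 in experiment 3 controls, 4.76 to 4.87 at 100 µM and 4.77 to 4.89 at 200 µM, and 3 of 12 were called higher at 200 µM. Endothelial markers (4 probe sets) ran over 3.96 to 4.30 on all arrays. Beside these marker counts, 16.3% of all probe sets were called higher and 18.0% lower at 100 µM. At 200 µM 18.2% of all were higher and 19.7% lower. The excess of the 3′ over the 5′ probe set of Actb, larger in degraded or incompletely copied RNA, ran over 0.15 to 0.50 on the 15 arrays of the chamber and of experiments 1 and 2. For experiment 3 the values were 1.41 and 1.62 in controls, 2.36 and 2.16 at 100 µM and 1.47 and 0.50 at 200 µM.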

How the data were processed

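The files hold 1 deposited value per probe set and array, on the log2 scale, and the authors made them with RMA, and GCOS 1.2 is also named, per the submitters' processing notes. Whether all 21 arrays went through RMA together is not given in the sources used here. Values ran from 1.37 to 13.3 with array medians of 5.44 to 5.53, and were used without further scaling. Of 12488 probe sets, the 10833 with 1 annotated gene symbol were kept, 396 with several genes were left out, and no detection calls were used. Coordinates are those of RefSeq (GRCm38.p6), not of the files.

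A mean for each of the 9 groups was fitted with limma 3.58.1 in R 4.3.3 (12 residual degrees of freedom, 20.1 after moderation), two-sided, adjusted by Benjamini-Hochberg over all probe sets. The fit was tested on simulated data. Arrays were not treated as paired. Residuals of same-numbered arrays correlated between -0.354 and 0.316, over too few pairs to decide whether the arrays were paired. The members, gene lists and tests were chosen with earlier results of these data known. List genes were named by rule, up to 4 with the largest mean hypoxia effect called with 1 sign in the 3 sets and up to 3 with the largest difference called with 1 sign at both doses, and the probe sets most like a member by the 4 highest correlations. Alternatives were median centring, quantile normalisation, a filter at the 40th percentile of mean level, 1 probe set per gene and every probe set. Further ones were array weights, robust moderation with a variance trend, a replicate block, fits on 1 set alone, and leaving out each array. The Actb 3′ minus 5′ signal was used as a covariate only for the comparisons within experiment 3. Leaving out the arrays of experiment 3 was added after seeing the data. Precision is limited by 2 or 3 arrays in a group.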

Additional observations from a re-analysis of the deposited data

Results flagged for a closer look

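The results below were singled out because the same contrast gave effects that differed by test between sets or between treatments, with adjusted p from limma over all probe sets. Ddit4 had a chamber effect minus experiment 1 effect of 1.15 and an experiment 1 effect minus experiment 2 effect of -1.36, so its rise was smallest in experiment 1. Mxd4 gave 1.41 and -0.98 in the same comparisons. Txnip (its brighter probe set) gave -1.61 for the chamber effect minus the experiment 2 effect and -2.30 for the experiment 1 effect minus the experiment 2 effect, since it was not lower in experiment 2 hypoxia. Between treatments, the mean CoCl2 effect minus the mean hypoxia effect was -1.56 for Myc, 1.28 for the same Txnip probe set and -0.50 for Ddit4. The Myc and Txnip calls between treatments were kept under every alternative run, while the Ddit4 call was lost under 17 of them (adjusted p from 0.0507 to 0.325). The Actb 3′ minus 5′ covariate was not among these alternatives, as it was not run for the comparison between treatments. No group held 4 or more arrays, so single arrays were not tested as outliers.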

How the results depend on the processing

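No member difference changed sign past the threshold under any alternative; of those computed, 2186 kept their side of it, 102 lost the call and 32 gained it. The number of member probe sets called moved by more than 1.5 times in the following cases. With array weights it was 4 for the chamber effect minus experiment 1 effect (2 in the model reported), 2 for the chamber effect minus experiment 2 effect (1), 5 at 100 µM CoCl2 (8) and 1 for 200 µM minus 100 µM (4). With only the arrays of experiment 3 it was 5 at 100 µM, 5 at 200 µM (8) and 1 between the doses. With the Actb covariate it was 5 at 200 µM and 0 between the doses, and without the arrays of experiment 3 it was 2 for the chamber effect minus experiment 2 effect. Leaving out 1 array at a time gave 5 to 6 members in the chamber, 4 to 5 in experiment 1, 3 to 4 in experiment 2, and 7 for their mean each time. Between sets it gave 1 to 2 (chamber minus experiment 1, 1 without chamber control 2 or experiment 1 control 2), 0 to 1 (chamber minus experiment 2, 0 without chamber control 2) and 1 to 3 (experiment 1 minus experiment 2, 1 without experiment 1 control 2 or experiment 2 control 1). For CoCl2 it gave 5 to 10 at 100 µM (5 without experiment 3 control 1 or the first 100 µM array), 6 to 8 at 200 µM, 1 to 3 between doses (1 without the second 200 µM array) and 2 to 7 for CoCl2 minus hypoxia (7 without the second 100 µM array).

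Over all probe sets, calls in the chamber numbered 2067, but 4916 with array weights (2580 higher, 2336 lower), 4340 with only that set and 3137 without experiment 3. At 100 µM they numbered 3723, but 1802 with array weights (528 higher, 1274 lower), 1936 with the Actb covariate and 1298 with only experiment 3, and at 200 µM 4104, but 1995 with only experiment 3. Between doses they numbered 1557, but 225, 137 and 115 in these 3 fits. For the chamber effect minus experiment 1 effect they numbered 323, but 1506 with array weights and 1033 without experiment 3, for the chamber effect minus experiment 2 effect 6, but 405 and 98, and for the experiment 1 effect minus experiment 2 effect 22, but 77 and 103. Without 1 array they ranged over 998 to 1748 in the chamber, 976 to 1551 in experiment 1, 785 to 1198 in experiment 2, 77 to 307, 0 to 11 and 5 to 27 in these comparisons of sets, 2140 to 5129 at 100 µM, 2763 to 3733 at 200 µM, 682 to 2364 between doses and 1306 to 4059 for CoCl2 minus hypoxia. The causes of these changes were not tested. With the replicate block, 6 members were called in the chamber, 4 in experiment 1, 3 in experiment 2, 8 at 100 µM and 7 at 200 µM. Calls lost with the block were those of Max in the chamber (-0.55, adjusted p = 0.0559), Mxd3 in experiment 1 (-0.32, 0.0543), Mnt at 200 µM (0.51, 0.0643), and Ddit4 between the doses (-0.52, 0.0664) and between CoCl2 and hypoxia (-0.51, 0.0627). Residuals of same-numbered hypoxia and control arrays correlated at 0.316 and 0.1 in experiment 2, and between -0.0813 and 0.0144 in the chamber and experiment 1. So few pairs cannot decide whether the numbers of the labels paired the arrays. With 2 or 3 arrays in a group, small differences of low probe sets such as those of Mycn could not be resolved.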
